A study of Mus musculus with 10 samples.

Results

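The circadian clock genes described here are Arntl, Clock, Nr1d1, Nr1d2, Per1, Per2, Per3, Dbp, Tef and Hlf (10 genes), measured in the right ventricle of 10 mice. They were taken as all probe sets that the array annotation assigns to these 10 symbols, which gave 19 of 22690 probe sets, for 10 of the 12393 genes with a probe set of their own. The 10 genes were chosen by their trained minus untrained signals among other earlier results of these data, so that contrast is given as a description only. Of the 19 probe sets, 14 passed the filter on dim signals and entered the tests on 13576 probe sets.

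All mice were of strain 129SV and were labelled as plakoglobin (+/-), with 1 disrupted copy of the desmosome gene Jup, or as wt. The groups were trained plakoglobin (+/-) (n = 4), trained wt (n = 4), untrained plakoglobin (+/-) (n = 1) and untrained wt (n = 1). Each trained group held 2 males and 2 females aged 6 months that swam in water of 35 °C 6 times per week, for 5 and later up to 90 min a day. Both untrained mice were females aged 10 months, so training and age cannot be told apart, and an untrained group has no replicate. The sources used here give no time of day for the dissection.

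The molecular clock is a feedback loop that runs in nearly every cell, heart muscle cells included. The transcription factors Arntl (also named Bmal1) and Clock bind E-box elements as a pair and activate the Per, Cry, Nr1d and Dbp genes. Per and Cry proteins then inhibit that pair, while the nuclear receptors Nr1d1 and Nr1d2 (REV-ERB alpha and beta) repress Arntl through elements called ROREs. Dbp, Tef and Hlf are related factors that bind D-box elements, found in Per genes among others, and pass the rhythm to output genes. In a mouse tissue the RNA of Arntl peaks at nearly the opposite time of day from that of Nr1d1 and Dbp.

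RNA quality differed between arrays. The GAPDH control's 3' probe set divided by its 5' probe set, a sign of RNA degradation, gave 2.98 in trained plakoglobin (+/-) mouse 1, 2.50 in trained wt mouse 1 and 17.8 in trained wt mouse 2, against at most 1.02 on the other 7 arrays. For the actin control this ratio was 2.65 and 3.05 on the first 2 of these arrays but 1.29 in trained wt mouse 2, against 0.932 to 1.24 on the other 7, so the controls differ on that array. Values without these 3 arrays are given beside some of the differences. Median signals lay between 897.9 and 1150. The 6 cardiac myocyte markers summed to at least 1051140 signal units on every array, while of the 3 atrial markers Myl7 and Sln did not exceed 729.1 and Myl4 read 1448 to 3234. Jup, which checks the genotype labels, read 2526 ± 680 in trained plakoglobin (+/-) and 3613 ± 654 in trained wt mice (SD, n = 4 each). The log2 difference was -0.53 (SE 0.24, limma unadjusted p = 0.0485, adjusted p = 1), and the 2 trained groups overlapped. In the untrained plakoglobin (+/-) mouse Jup read 3157, against 2387 in the untrained wt mouse, so Jup RNA did not separate the genotypes and they are given as labelled. The sources used here do not say whether this probe set reads the altered stretch of Jup.

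The DNA elements named above, an E-box variant and the cyclic AMP response element were looked for around the RefSeq start sites (GRCm38.p6). Windows of 250 bases before and 50 after the start, 14 of them, were held for 9 of the 10 genes. Per2 was not among them. On both strands, the E-box CACGTG was present in windows of Per1 and Tef, and in 7.15% of all 32851 promoter windows of the same length. The related E-box variant CACGTT was present, on the opposite strand as AACGTG, in the window of Nr1d1 (4.68% of all windows). The D-box TTATGTAA occurred at 2 places in the window of Per3 (0.938% of all), the RORE core TAGGTCA in a window of Arntl (2.61%) and the cyclic AMP response element TGACGTCA in the window of Hlf (1.79%). No 2 of these motifs overlapped. A match is a run of letters and not a shown binding site. The stretches below, 5′ to 3′ on the gene's strand and credited to RefSeq, show the elements of 1 repressor, 2 Per genes, 1 output factor and the activator, with the motif in capitals.

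Nr1d1, chr11:98775378-98775627, minus strand, 250 bases before the start, with the variant E-box beginning at base -28: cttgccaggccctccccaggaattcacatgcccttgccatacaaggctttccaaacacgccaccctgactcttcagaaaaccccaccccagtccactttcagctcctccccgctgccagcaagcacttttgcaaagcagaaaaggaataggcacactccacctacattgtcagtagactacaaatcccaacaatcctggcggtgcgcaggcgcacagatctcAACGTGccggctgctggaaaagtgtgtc
Per1, chr11:69098699-69098948, plus strand, with the E-box at base -166: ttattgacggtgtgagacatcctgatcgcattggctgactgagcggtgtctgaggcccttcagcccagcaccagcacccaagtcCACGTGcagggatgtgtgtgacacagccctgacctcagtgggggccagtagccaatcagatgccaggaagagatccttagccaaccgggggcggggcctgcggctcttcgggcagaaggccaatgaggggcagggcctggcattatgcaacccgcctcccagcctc
Per3, chr4:151044666-151044915, minus strand, with D-boxes at bases -205 and -158: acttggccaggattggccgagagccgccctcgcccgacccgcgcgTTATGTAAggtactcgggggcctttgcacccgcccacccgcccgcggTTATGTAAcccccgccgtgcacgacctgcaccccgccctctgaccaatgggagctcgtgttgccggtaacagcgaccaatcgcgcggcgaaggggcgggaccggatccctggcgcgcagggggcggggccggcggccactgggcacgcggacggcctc
Tef, chr15:81802423-81802672, plus strand, with the E-box at base -127: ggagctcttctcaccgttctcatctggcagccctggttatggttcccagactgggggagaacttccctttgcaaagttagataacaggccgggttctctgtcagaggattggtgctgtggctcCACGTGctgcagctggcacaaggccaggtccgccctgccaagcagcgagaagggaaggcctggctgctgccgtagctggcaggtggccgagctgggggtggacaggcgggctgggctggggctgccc
Arntl, chr7:113207530-113207559, plus strand, 30 bases with the RORE core at base 31 after the start: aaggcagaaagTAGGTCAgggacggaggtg

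The first comparison set the 8 trained against the 2 untrained mice. In trained mice the activators Arntl and Clock and the repressor Nr1d1 had lower signals, while Per1, Per3, Dbp, Tef, Hlf and the brighter probe set of Nr1d2 had higher ones. Of the 14 tested clock probe sets, 9 were higher and 5 lower, with a median log2 difference of 0.44 beside -0.00 over all 13576. The median size of the difference, without sign, was 0.73 for the clock probe sets and 0.26 for all. By limma 1 of 14 passed at an adjusted p of 0.05, beside 0.626% of all probe sets, and nothing is read from this count because the contrast chose the genes. The fit has a sex term and both untrained mice were female, so each log2 difference equals that of the 4 trained females against the 2 untrained females.

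**Figure D1:**
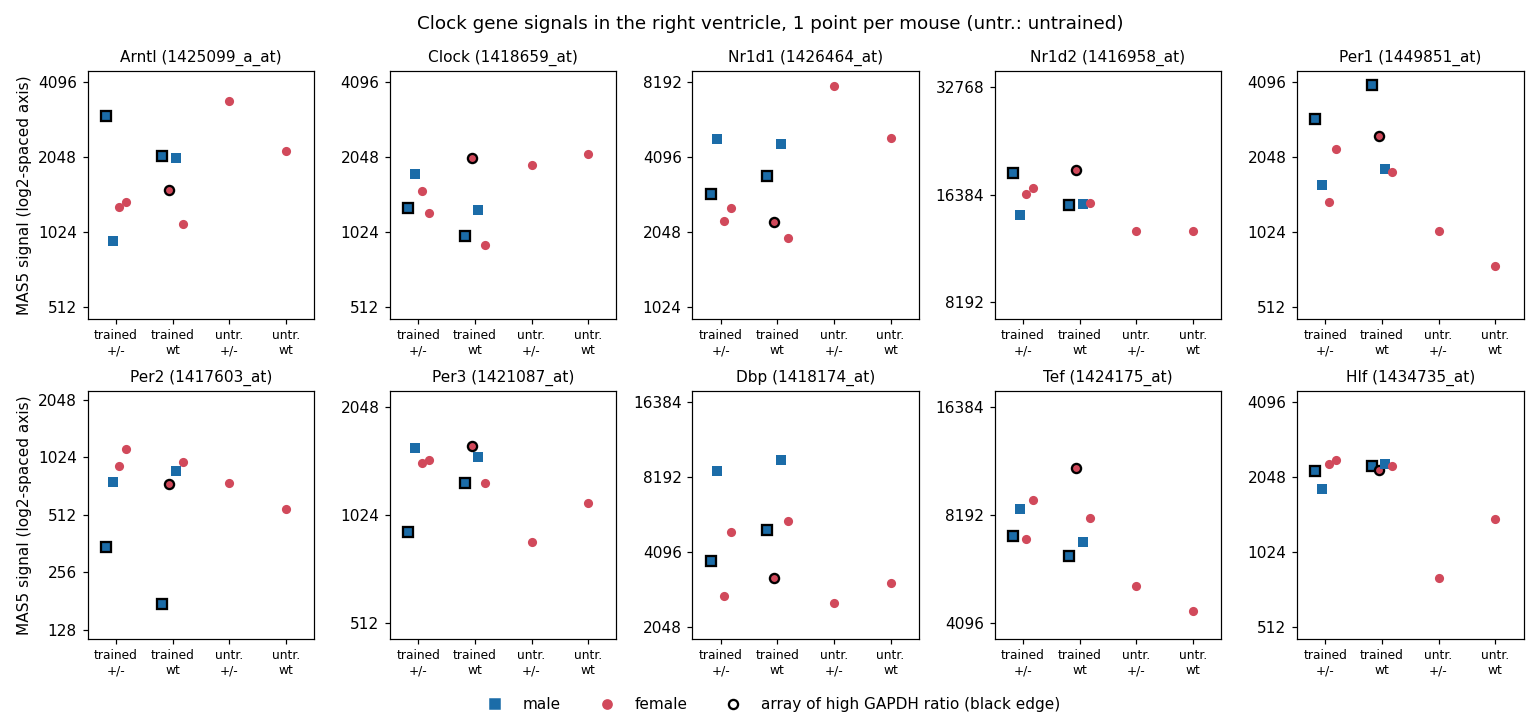
MAS5 signal (log2-spaced vertical axis) of the representing probe set of each clock gene, with 1 point per mouse in the 4 groups (+/- stands for plakoglobin (+/-), untr. for untrained). Squares are males, circles females, and a black edge marks the 3 arrays of high GAPDH ratio. Nr1d1 is lower and Nr1d2, Per1, Tef and Hlf are higher in all 8 trained mice than in both untrained mice.

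Among the activators, Arntl read 2990.9, 941.6, 1295.1 and 1347.7 in trained plakoglobin (+/-) mice and 2063.7, 1514.7, 2023.7 and 1106.6 in trained wt mice, against 3453.9 in the untrained plakoglobin (+/-) and 2160.8 in the untrained wt mouse. The groups overlapped: trained plakoglobin (+/-) mouse 1 lay between the untrained mice, and the other 7 trained mice lay below both. The log2 difference was -1.06 (SE 0.41), -1.46 without the untrained wt mouse and -0.66 without the untrained plakoglobin (+/-) one. Clock, the partner of Arntl, read 907.1 to 2036 over the 8 trained mice with a median of 1264, against 1902 and 2102 in the untrained mice, a log2 difference of -0.56 (SE 0.35) by probe set 1418659_at. Only trained wt mouse 2, an array of high GAPDH ratio, reached the untrained range. A second Clock probe set gave -0.61 (SE 0.64), and it moved to -1.13 and -0.09 when the untrained plakoglobin (+/-) or the untrained wt mouse was left out.

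Of the nuclear receptors that repress Arntl, Nr1d1 read 2907.4, 4824.0, 2267.2 and 2570.3 in trained plakoglobin (+/-) mice and 3433.4, 2250.8, 4620.0 and 1949.2 in trained wt mice, against 7873.5 in the untrained plakoglobin (+/-) and 4906.6 in the untrained wt mouse. All 8 trained mice were below both untrained mice, the highest of them by little. The log2 difference was -1.47 (SE 0.27), which is a ratio of 0.362, and -1.53 (SE 0.21) without the 3 arrays of high GAPDH ratio. Nr1d1 was the clock probe set counted above as past the threshold, and nothing is read from that because the contrast chose the genes. With 1 mouse left out, its log2 difference lay between -1.78 (without the untrained wt mouse) and -1.15 (without the untrained plakoglobin (+/-) mouse). Nr1d2, its closest relative, had probe sets of opposite sign. The brighter one read 14407 to 19186 in trained mice with a median of 16002, against 12952 and 12965 in the untrained mice, a log2 difference of 0.39 (SE 0.18) by probe set 1416958_at. By this probe set the trained mice all lay above the untrained ones. The dimmer one, 1416959_at, gave -0.92 (SE 1.44) and -0.10 (SE 0.25) once the 3 arrays with a high GAPDH ratio were left out.

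Of the Per genes, whose proteins inhibit the Arntl and Clock pair, Per1 read 2909.4, 1584.7, 1350.6 and 2208.8 in trained plakoglobin (+/-) mice and 3967.9, 2482.3, 1843.7 and 1786.7 in trained wt mice, against 1034.1 in the untrained plakoglobin (+/-) and 749.1 in the untrained wt mouse. The groups did not overlap, and the log2 difference was 1.12 (SE 0.39), 0.73 with the untrained wt mouse left out and 1.5 with the untrained plakoglobin (+/-) mouse left out. The 3 arrays of high GAPDH ratio gave the highest Per1 signals of the trained mice (2482 to 3968, against 1351 to 2209 on the other 5), and without them the difference was 0.98 (SE 0.33). Per3 had 0.56 (SE 0.30) by probe set 1421087_at, at 915.6 to 1598 in trained and 858.1 and 1103 in untrained mice, which overlapped. Both Per2 probe sets and the other 2 of Per3 were below the filter and were not tested. By 1460662_at Per3 read 426.1 to 934.6 in trained mice, against 285.0 and 114.0 in untrained mice, without overlap. There the trained males (426.1 to 587.6) all lay below the trained females (600.1 to 934.6). By 1421086_at Per3 read 317.5 to 885.6 in trained mice, against 532.1 and 79.5 in untrained mice, which overlapped. Per2 read 175.0 to 1130 in trained mice by probe set 1417603_at, against 752.6 and 547.6 in untrained mice, and by 1417602_at 271.0 to 1176 against 121.0 and 381.0. By 1417602_at Per2 was above both untrained mice in all 4 trained females and in 2 of the 4 trained males.

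Of the D-box factors, Hlf, Tef and Dbp each had 1 probe set with higher signals in every trained mouse than in both untrained mice, and other probe sets of these genes overlapped. Hlf, by probe set 1434735_at, read 2170.3, 1833.2, 2311.8 and 2403.3 in trained plakoglobin (+/-) mice and 2280.8, 2190.3, 2322.3 and 2271.3 in trained wt mice, against 806.1 in the untrained plakoglobin (+/-) and 1387.2 in the untrained wt mouse. Its trained signals lay close together, with an SD of 0.12 on the log2 scale over the 8 mice beside a median of 0.38 for all tested probe sets. The log2 difference was 1.12 (SE 0.25), a ratio of 2.17, but it became 0.76 with the untrained plakoglobin (+/-) mouse left out and 1.48 with the untrained wt mouse left out. A second Hlf probe set, 1434736_at, gave 0.60 (SE 0.34) with overlapping groups, and there the untrained plakoglobin (+/-) mouse (1399) was above the untrained wt mouse (842.1).

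Tef read 6267 to 11099 in trained mice with a median of 7608, against 5196 in the untrained plakoglobin (+/-) and 4425 in the untrained wt mouse, a log2 difference of 0.86 (SE 0.23) by probe set 1424175_at. By this probe set no trained mouse reached down to the untrained signals. The other tested Tef probe set, 1450184_s_at, read 180.0 to 2447 in trained mice, against 935.6 and 1158 in untrained mice, which overlapped. It gave 0.26 (SE 0.85), and 0.75 (SE 0.40) without the 3 arrays of high GAPDH ratio. Dbp, the member of this family with the strongest known rhythm, had 2 probe sets. By 1438211_s_at it read 6796.8, 5796.6, 3505.9 and 3898.0 in trained plakoglobin (+/-) mice and 7790.4, 3403.9, 6734.3 and 4243.5 in trained wt mice, against 1825.2 in the untrained plakoglobin (+/-) and 2142.3 in the untrained wt mouse. The groups did not overlap, and the log2 difference was 0.92 (SE 0.20). By 1418174_at the trained mice read 2731 to 9603 and the untrained mice 2559 and 3098, which overlapped, with a difference of 0.48 (SE 0.39). Once the 3 arrays of high GAPDH ratio were left out, the difference was 1.0 (SE 0.19) by 1438211_s_at and 0.64 (SE 0.25) by 1418174_at.

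**Figure D2:**
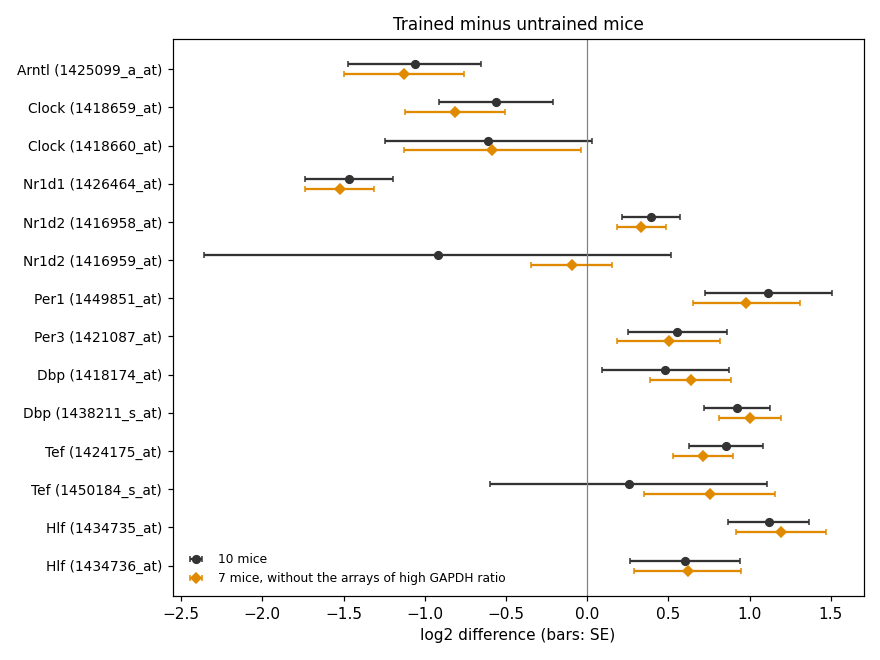
Trained minus untrained log2 difference (horizontal axis, bars are SE) of the 14 tested clock probe sets, from all 10 mice (circles) and from the 7 mice left without the arrays of high GAPDH ratio (diamonds). Arntl, Clock and Nr1d1 lie left of 0 and Per1, Per3, Dbp, Tef and Hlf right of it in both fits; Nr1d2 1416959_at is at -0.92 with all 10 mice and -0.10 with the 7.

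Counted by overlap, 5 of the 14 tested probe sets were higher in every trained mouse than in both untrained mice (Nr1d2 1416958_at, Per1, Dbp 1438211_s_at, Tef 1424175_at and Hlf 1434735_at), beside 4.63% of all tested probe sets. Nr1d1 alone was lower in every trained mouse, beside 4.61% of all. This count describes the same contrast that chose the genes. Summed markers of other cell types were also compared. The lung epithelium markers summed to 1723 to 3263 in trained and 3390 to 3479 in untrained mice, and the ventricular myocyte markers to 458858 to 595557 in trained and 624635 to 742778 in untrained mice. Neither sum overlapped between the groups. The ventricular list holds only 2 genes, Myl2 and Myl3, and the sum of the 6 cardiac myocyte markers did overlap. That sum was 1051140 to 1379319 in trained and 1282460 to 1428135 in untrained mice. The sums of the leukocyte, endothelium, fibroblast and smooth muscle markers overlapped (6668 to 18275 in trained and 8352 to 11280 in untrained mice for leukocytes). Their part in the clock gene differences was not tested, and in pieces of tissue fewer cells of a type and less RNA per cell cannot be told apart.

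The second comparison asked whether the clock genes differed by sex among the 8 trained mice. The genes were chosen with other earlier results of these data known too, so this contrast may not be independent of the choice. Nr1d1 and Dbp had higher signals in males, but no clock probe set passed the test. By limma 0 of 14 passed, beside 7 of 13576 probe sets (0.0516%), and 2 of 14 had an unadjusted p under 0.05, beside 8.82% of all. Nr1d1 read 2907.4, 3433.4, 4824.0 and 4620.0 in trained males, against 2250.8, 2267.2, 2570.3 and 1949.2 in trained females. All males were above all females, at a log2 difference of 0.78 (SE 0.22; unadjusted p = 0.00554, adjusted p = 0.496).

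Dbp 1438211_s_at read 6796.8, 7790.4, 5796.6 and 6734.3 in trained males, against 3403.9, 3505.9, 3898.0 and 4243.5 in trained females. The sexes did not overlap, and the log2 difference was 0.85 (SE 0.17; unadjusted p = 0.000614, limma adjusted p = 0.238), a ratio of 1.80. The second Dbp probe set, 1418174_at, averaged 6774 ± 2797 in trained males and 4098 ± 1323 in trained females (SD, n = 4 each), a log2 difference of 0.68 (SE 0.34; limma adjusted p = 0.583) with overlapping sexes. The 2 males on arrays of high GAPDH ratio had the lowest signals of the males by that probe set and the highest by 1438211_s_at. With the 3 arrays of high GAPDH ratio left out, the differences were 1.10 (Nr1d1), 0.66 (Dbp 1438211_s_at) and 1.05 (Dbp 1418174_at), with limma adjusted p values of 0.109, 0.336 and 0.264.

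These 2 genes were thus the tested clock probe sets in which the sexes did not overlap: 2 of 14 were higher in all males (2.98% of all tested probe sets) and 0 were lower in all males (2.91% of all). For Dbp 1438211_s_at the order of signals was trained males, trained females and then untrained females, with no overlap between neighbours. For Nr1d1 the order was untrained females, trained males and then trained females, again with no overlap. Arntl, which Nr1d1 protein represses, averaged 2005 ± 838 in trained males and 1316 ± 168 in trained females (SD, n = 4 each), a log2 difference of 0.50 (SE 0.34; limma adjusted p = 0.680), which was 0.09 (SE 0.37) without the 3 arrays of high GAPDH ratio. Trained plakoglobin (+/-) mouse 2, a male, had the lowest Arntl signal of all mice. The remaining clock probe sets lay between -0.85 and 0.34 by sex. Without the 3 arrays, Nr1d2 1416959_at turned sign (-0.73 with them, 0.74 without). Per1 (0.34 and -0.05), Per3 1421087_at (-0.16 and 0.17) and Clock 1418659_at (-0.07 and 0.42) turned sign too. The other Clock probe set, 1418660_at, moved (-0.61 and -1.39). By limma 0 of 14 passed in that fit.

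**Figure D3:**
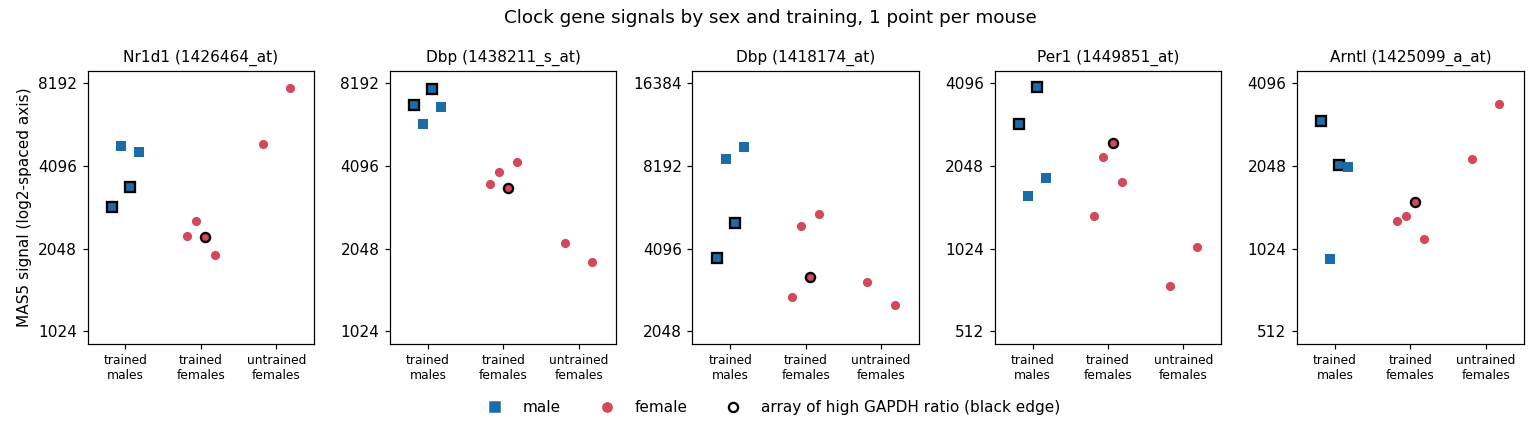
MAS5 signal (log2-spaced vertical axis) of Nr1d1, both Dbp probe sets, Per1 and Arntl in 4 trained males, 4 trained females and 2 untrained females, with 1 point per mouse. A black edge marks an array of high GAPDH ratio. Nr1d1 and Dbp 1438211_s_at are higher in all trained males than in all trained females, and Nr1d1 is higher still in the untrained females.

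The third comparison set trained plakoglobin (+/-) against trained wt mice. By limma 0 of 14 clock probe sets passed, as did 0 of all 13576 (0%), and 0 of 14 had an unadjusted p under 0.05, beside 2.01% of all. The median log2 difference of the clock probe sets was -0.00, beside 0.01 for all, and the median size was 0.13, beside 0.16. The lowest p values belonged to Clock 1418660_at (0.63, SE 0.55), Per1 (-0.31, SE 0.31) and Nr1d2 1416959_at (1.07, SE 1.25). With 1 mouse left out these spanned 0.09 to 1.16 for Clock 1418660_at (lowest without trained wt mouse 3, highest without trained wt mouse 1), -0.53 to -0.08 for Per1 (without trained wt mouse 3 and without trained wt mouse 1) and 0.21 to 2.31 for Nr1d2 1416959_at (without trained wt mouse 2 and without trained plakoglobin (+/-) mouse 1). Without the 3 arrays of high GAPDH ratio they were 1.02, -0.12 and 0.55 in the same order, and 0 of 14 passed. In no tested clock probe set did the genotypes separate, beside 0.803% of all that were higher and 0.796% lower in every plakoglobin (+/-) mouse. Arntl averaged 1644 ± 916 in trained plakoglobin (+/-) and 1677 ± 455 in trained wt mice, and Nr1d1 3142 ± 1151 in trained plakoglobin (+/-) and 3063 ± 1220 in trained wt mice (SD, n = 4 each). The genotype by sex term gave 0 of 14 clock probe sets and 0% of all at an adjusted p of 0.05 by limma, with 0 of 14 and 2.66% of all under an unadjusted p of 0.05. With 4 mice a group, a p that misses the threshold does not show that the genotypes are alike. For Arntl the SE of the genotype difference was 0.34 on the log2 scale.

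The clock genes also varied among the trained mice. The SD of the log2 signal over the 8 trained mice had a median of 0.48 for the 14 clock probe sets, beside 0.38 for all tested, and 9 of 14 were above that value. The 3 largest, above the 90th percentile of all (0.80), were 2.14 for Nr1d2 1416959_at, 1.26 for Tef 1450184_s_at and 0.88 for Clock 1418660_at, of which the first 2 were low on the 3 arrays of high GAPDH ratio. It was 0.55 for Arntl, 0.49 for Nr1d1, 0.50 for Per1 and 0.64 for Dbp 1418174_at, but 0.26 for Tef 1424175_at, 0.15 for Nr1d2 1416958_at and 0.12 for Hlf 1434735_at. The highest over the lowest trained signal was 3.18 for Arntl, 2.47 for Nr1d1 and 3.52 for Dbp 1418174_at.

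Arntl was correlated with the other 9 genes over the 8 trained mice. None of 9 relations passed an exact permutation test after Benjamini-Hochberg adjustment. Arntl and Nr1d1 had a Pearson r of 0.14 (exact permutation p = 0.75) and a Spearman rho of 0.17 (exact p = 0.703). Without the 2 mice farthest from the median of Arntl, plakoglobin (+/-) mice 1 and 2, r was 0.90 over 6 mice, so the value rests on those mice. With the means of each sex and genotype removed, r over the 8 mice was -0.73 for Nr1d1, the opposite sign to its values above. It was -0.75 for Per3, -0.71 for Dbp, -0.47 for Per2, -0.16 for Tef and -0.12 for Clock. For Nr1d2 it was 0.92, for Hlf 0.87 and for Per1 0.61. Each sex and genotype held only 2 mice, so nothing is read from these values. Within 1 sex there were 4 mice, too few for a correlation. For Arntl and Dbp r was -0.16 (exact permutation p = 0.697), rho was -0.17 (exact p = 0.703), and r was 0.47 without plakoglobin (+/-) mice 1 and 2. Per3 had the most negative relation, with r of -0.68 (exact permutation p = 0.0576, adjusted 0.28) and rho of -0.45 (exact p = 0.267, adjusted 0.673), but r was 0.07 without the 2 mice. Per1 had the most positive one, with r of 0.68 (exact permutation p = 0.0658, adjusted 0.28), rho of 0.83 (exact p = 0.0154, adjusted 0.138) and r of 0.59 without the 2 mice. Arntl and Per1 were both higher on the 3 arrays of high GAPDH ratio than on the other trained arrays, by 0.70 and 0.82 on the log2 scale. Leaving these 3 arrays out left 5 mice, too few for a correlation.

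Probe sets of the same gene disagreed where RNA quality differed. Nr1d2 1416959_at read 97.5, 157.0 and 159.5 on the 3 arrays of high GAPDH ratio, against 1580 to 3880 on the other 5 trained arrays and 1983 and 1895 in the untrained mice. The other Nr1d2 probe set read 15369 to 19186 on those 3 arrays, against 14407 to 17092 on the other 5 trained arrays. Tef 1450184_s_at read 180.0 to 601.1 on the 3 arrays, against 899.6 to 2447 on the other 5, while Tef 1424175_at was the same on average in both sets of arrays (a log2 difference of 0.01). Per2 1417603_at, which was not tested, was lower by 1.37 on the log2 scale on the 3 arrays and Per2 1417602_at by 0.01. Of the 14 tested clock probe sets 2 were lower on all 3 of these arrays than on the other 5 (7.98% of all tested probe sets) and 1, Per1, was higher (5.79% of all). Where the probe sets lie along their transcripts was not looked up here.

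**Figure D4:**
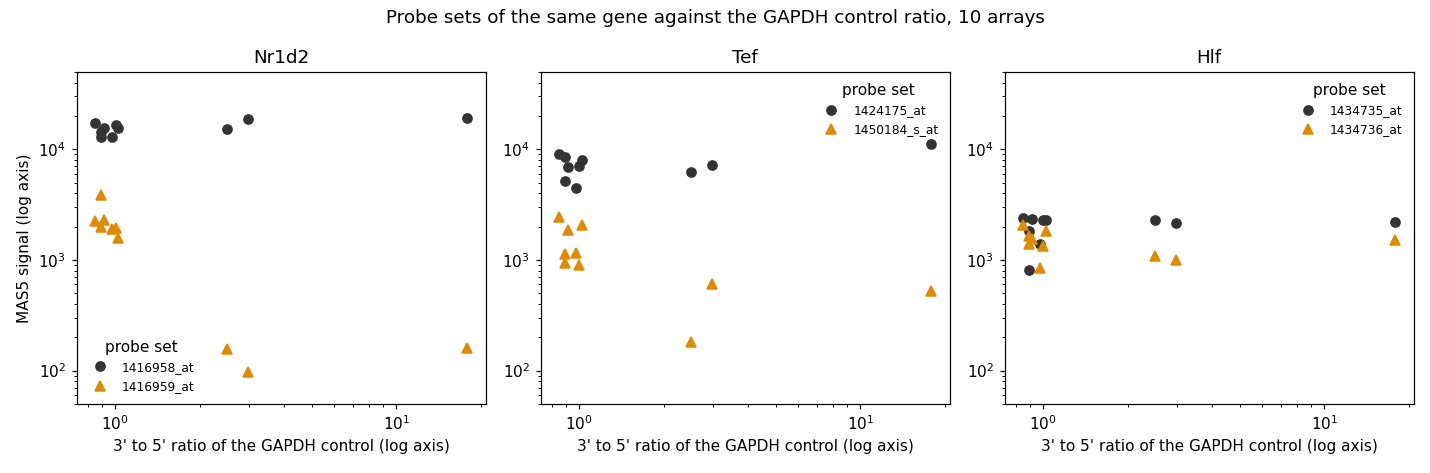
MAS5 signal (log axis) of both probe sets of Nr1d2 and Hlf and the 2 tested ones of Tef against the 3' to 5' ratio of the GAPDH control (log axis) on the 10 arrays. Nr1d2 1416959_at lies at 97.5 to 159.5 on the 3 arrays with the highest ratios and at 1580 or above on the other 7, while Nr1d2 1416958_at stays at 12952 or above on all 10.

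Other genes of the clock pathway were taken from lists and are given for the trained minus untrained contrast. Of the other core clock genes 10 of 12 were on the array and 5 were tested, and by limma 0 passed, with 4 higher and 1 lower at a median of 0.07. Cry1, Cry2 and Npas2 were among those below the filter. Bhlhe41, a repressor of the Arntl and Clock pair, had -0.81 (SE 0.68), its relative Bhlhe40 0.21 (SE 0.22), Nfil3, which competes at D-boxes, 0.09 (SE 0.77) and Rorb, an activator at ROREs, 0.07 (SE 0.44). Of 12 tested kinases, ubiquitin pathway enzymes and other modifiers 0 passed, with 6 higher and 6 lower. Usp2, a deubiquitinase with a known rhythm, read 9730 to 15201 in trained and 7245 and 7107 in untrained mice, without overlap, at 0.68 (SE 0.20; limma adjusted p = 0.287). Csnk1e, a kinase that acts on Per proteins, had 0.52 (SE 0.22), Fbxw11 -0.30 (SE 0.21) and Gsk3b -0.25 (SE 0.30).

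Of 15 tested rhythmic output genes 0 passed by limma, with 10 higher and 5 lower at a median of 0.14, beside -0.00 for all tested probe sets. The 4 with the largest differences were lower: Angptl4, a lipase inhibitor, had -1.88 (SE 0.53), Kcnip2, a subunit of the transient outward potassium channel, -1.52 (SE 1.77), Pdk4, which restrains glucose oxidation, -1.26 (SE 0.38) and Ucp3, a mitochondrial carrier, -1.13 (SE 0.34). Klf15, named here after its value was seen, came next in size and was higher, at 1.11 (SE 0.37). Kcnip2 was read at 49.0 to 935.1 on the 3 arrays of high GAPDH ratio and at 3815 or above on the other 7. Of 9 tested glucocorticoid and stress responsive genes, a group to which Per1 is also known to belong, 0 passed, with 8 higher and 1 lower at a median of 0.30. Tsc22d3 had 1.02 (SE 0.38), Fkbp5 0.90 (SE 0.29), Cebpd 0.75 (SE 0.26) and Sgk1, a kinase, -0.69 (SE 0.41).

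By sex 0 members of these lists passed by limma. In the glucocorticoid and stress responsive list 5 of 9 had an unadjusted p under 0.05, beside 8.82% of all probe sets, and all 5 were higher in males: Sgk1, Errfi1, Cebpd, Ddit4 and Mt2, of which Errfi1, Ddit4 and Mt2 are named here after their values were seen. The 2 males on arrays of high GAPDH ratio had the highest signals in all 5. Errfi1 read 56834 and 47870 in these males and 7825 and 13488 in the other males, and Mt2 20381 and 15277 in these males and 6405 and 5464 in the other males, against at most 3256 (Errfi1) and 5372 (Mt2) in females. The part of RNA quality was not tested. Sgk1 read 15609 and 11382 in the males on arrays of high GAPDH ratio and 6172 and 5956 in the other trained males, against 1609 to 2094 in trained females, at a log2 difference of 2.30 (SE 0.32; limma adjusted p = 0.0533). Bhlhe40 read 3621 to 4523 in trained males, against 1774 to 2287 in trained females, at 1.0 (SE 0.19; limma adjusted p = 0.191), and the sexes did not overlap in either gene. By genotype 0 members of the 4 lists had an unadjusted p under 0.05.

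Finally, the genes whose log2 signals followed Arntl and Nr1d1 most closely were found among 8364 tested genes by Pearson's r over the 10 mice, as a description. For Arntl they were Exosc9 (0.92), Uqcrq (0.91), Casp2 (0.88), Trappc10 (0.88) and Vegfd (0.88), and over the 8 trained mice alone their r was 0.87 to 0.95. For Nr1d1 they were Wbp11 (0.92), Glis2 (0.92), Ccnd1 (0.91), Cltb (0.90) and Sdc2 (0.88), and over the trained mice 0.71 to 0.92. No clock gene was among them. Among the clock genes the most negative r over the 10 mice were those of Per3 with Arntl (-0.81) and of Hlf (-0.80) and Nr1d2 (-0.76) with Nr1d1. Negative values with Arntl were also found for Tef (-0.61), Hlf (-0.55), Dbp (-0.43), Nr1d2 (-0.17) and Per1 (-0.05), and with Nr1d1 for Tef (-0.65), Per1 (-0.49) and Per3 (-0.43). Positive values were those of Arntl with Nr1d1 (0.53) and Clock (0.17), and of Nr1d1 with Clock (0.47) and Dbp (0.04). Over the 8 trained mice alone the sign turned with Arntl for Hlf (0.34), Nr1d2 (0.48), Per1 (0.68) and Clock (-0.22). With Nr1d1 it turned for Per1 (0.03) and Per3 (0.16). Of the positive values that kept their sign, that of Nr1d1 with Dbp was 0.77 over the trained mice. Those of Nr1d1 with Clock and of Arntl with Nr1d1 were both 0.14. The values over the 10 mice share the difference between trained and untrained mice, and all of these values share the 3 arrays of high GAPDH ratio.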

How the data were processed

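RNA of the right ventricle was extracted with TRIzol and measured on Affymetrix arrays, 1 per mouse. The deposited values are linear intensity values (MAS5 signals; MAS5 version 5.0 per the submitters' processing notes). The authors' scaling left each array the same mean after the lowest and highest 2% were dropped. The number of arrays limits precision.

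Signals were raised to a floor of 104 (10th percentile) and log2 transformed. With 64 controls removed, the 13576 probe sets whose mean reached the 40th percentile were fitted together with limma 3.58.1 (eBayes with trend, two-sided, Benjamini-Hochberg, 0.05) in R 4.3.3. Terms were genotype and sex (8 trained mice), also with their interaction, and training, genotype and sex (10 mice). Correlations used exact permutations (two-sided). Symbols came from GEO's platform annotation (20393 probe sets with 1 symbol, 691 with several, 1606 unlisted), and all 10 clock symbols matched RefSeq. A gene is represented by its brightest probe set.

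Members, lists and tests were chosen with earlier results of these data known. From each list the 4 tested genes of largest trained minus untrained difference are named, and by genotype and sex the 3 clock probe sets of lowest p. The scripts' tests were checked on simulated data. The labels number no replicates; mice are numbered in record order, and p-values measure the spread between these mice. The series used littermate pairs that the labels do not identify.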

Additional observations from a re-analysis of the deposited data

Results flagged for a closer look

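Over the 38 groups of 4 trained mice (19 clock probe sets in 2 genotypes), 2 held a mouse far from the other 3, where chance alone flags about 1 group in 20. Nr1d2 1416958_at read 19186.4 in trained wt mouse 2, against 15369 to 15522 in the other 3 trained wt mice. That array had the highest GAPDH ratio, 17.8, and its part in the value was not tested. Tef 1438033_at, a probe set below the filter, read 322.0 in trained plakoglobin (+/-) mouse 4, against 829.6 to 874.1 in the other 3 trained plakoglobin (+/-) mice. The brighter Tef probe set 1424175_at read 9034 in that mouse, the highest of its group.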

How the results depend on the processing

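The genotype and genotype by sex fits gave 0 probe sets past the threshold under every alternative run, and 0 clock probe sets passed by sex under any. The number past the threshold by sex, 7, was 1 without the eBayes trend, 11 with a filter at the 60th percentile, 15 with a floor at the 25th percentile, 2 with no filter, 13 after quantile normalization, 17 without the 3 arrays of high GAPDH ratio and 1 to 12 with 1 mouse left out. In the training fit, 85 became 225 without those 3 arrays and 10 to 87 with 1 mouse left out (10 without the untrained plakoglobin (+/-) and 34 without the untrained wt mouse). The clock probe sets among them, 1 (Nr1d1), numbered 0 without the trend, 0 with no filter, 0 without the sex term, 2 without the 3 arrays and 0 to 1 with 1 trained mouse left out. Nothing is read from these clock counts, because the contrast chose the genes. Of 261 recomputed training differences of clock probe sets, 257 moved by less than the spread of trained mice. Many of these could not move. The trend and the filter do not enter the difference, and with the sex term leaving out trained males does not change it. The count is therefore no measure of stability. The other 4 are those of Hlf without either untrained mouse (0.76 and 1.48 by 1434735_at, 0.97 and 0.23 by 1434736_at). Tef 1450184_s_at, at 0.26, changed sign without the sex term (-0.17), the untrained plakoglobin (+/-) mouse (-0.16), trained plakoglobin (+/-) mouse 4 (-0.05) and trained wt mouse 4 (-0.09). None of the Arntl relations passed under any alternative. Causes of these changes were not tested. No paired analysis was possible because the littermate pairs are not identified in the labels. Left with 1 untrained mouse, the fit assumes that it varies like the others.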
